A study of Mus musculus with 34 samples.

Results

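DNA methylation was described at the CpG islands of 10 mouse T-box genes, which are T, Eomes, Tbx1, Tbx2, Tbx3, Tbx4, Tbx5, Tbx15, Tbx18 and Tbx20. Probes that carry one of these gene names on the array were joined into islands where gaps were at most 500 bases, which gave 25 runs of probes. Of these, 23 held at least 3 probes and received a score, out of 13620 scored islands on the array. The 23 islands hold 156 probes, 3 to 14 each. The genes were chosen on their island methylation scores in these same arrays, over all groups of samples, so the values of the members are a description. Where the number of members that passed a test over all islands is given, the share of all islands that passed stands beside it, and the count is no independent evidence. The 2 runs left out had 2 probes each, at 9303 bases from the Tbx2 start (mean Z of 0.35 over adult and -0.0752 over differentiated ES cell arrays) and at 10296 bases from the Tbx5 start (-0.161 and 0.899). The smallest islands kept, of 3 probes, lay upstream of Tbx1, at -3843, and of Eomes, at -1505, with adult medians of -0.0926 and -0.152.

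T-box factors are transcription factors that bind DNA through a shared domain, the T-box, named after T (Brachyury). They pattern the mesoderm, the heart, the limbs and the pharyngeal arches of the embryo, and each is active in a restricted set of tissues. CpG islands are stretches dense in CpG dinucleotides that lie over many gene starts, where they are usually free of methylation. Islands of developmental regulators, T-box genes among them, often extend beyond the start into the gene or its flanks.

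Methylated DNA was enriched with an antibody against 5-methylcytidine (mDIP), labelled with Cy5 and hybridized together with the Cy3-labelled input DNA of the same sample on a CpG island array. The island methylation score is the mean over an island's probes of the log ratio of bound over input, expressed as a Z-score, that is in SD of the array around its mean. A score of 0 is therefore the average probe of that array and not the absence of methylation. The study asked whether ES cells and cells differentiated from them in culture carry island methylation that normal tissue lacks.

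The 34 arrays comprised 16 of adult C57Bl/6 tissue at 3 months of age (colon, pancreas, brain, kidney, liver, lung, muscle and spleen, 2 arrays each), and 5 of whole embryos, 1 each at 8.5, 9.5, 10.5, 11.5 and 12.5 dpc. Undifferentiated ES cells were the lines EB5, J1 and TT2, with 1 array each. The 5 arrays of ES cells differentiated in culture were embryoid bodies from TT2, cells treated with retinoic acid, 2 arrays of endoderm and 1 of mesoderm. Endoderm and mesoderm were sorted after Activin A treatment from a Gsc and Sox17 reporter line derived from EB5. The retinoic acid sample is labelled as TT2, whereas the methods name J1. Both teratoma arrays are labelled as J1, whereas the methods name other ES cells injected into NOD-SCID mice, and such tumours also hold cells of the host. The remaining 3 arrays were β cells sorted from the pancreatic islets of Pdx1-GFP mice and the tumour-derived lines Min6, from β cells, and αTC, from α cells, with 1 array each and no replicate. Neither the labels nor the methods say that the adult replicates were separate animals, so the tests measure the spread between these arrays.

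Several arrays stood apart before any T-box island was considered. Over the 1000 autosomal islands that vary most among the adult arrays, both colon arrays correlated with each other at r = 0.969 and both pancreas arrays at r = 0.92 across islands. Each of the other 12 adult arrays was most like an array labelled as another tissue, at r = 0.824 to 0.934, against r = 0.492 to 0.758 with its own tissue. Brain 1 was most like liver 2 and brain 2 most like liver 1, and kidney was crossed in the same way with spleen. Which labels hold was not tested, and no array was regrouped. Comparisons of all adult arrays with another class do not use the tissue names. The scores of X-linked islands were high on all adult arrays labelled female and low on all labelled male. In the 2 youngest embryos, labelled male, they exceeded those of autosomal islands by 1.03 and 1.15. For adult lung 2 this excess was 0.915, and for the other high adult arrays 1.30 (brain 1) to 1.86 (spleen 1). Among the 3 ES cell arrays, J1 was the highest at 6 and the lowest at 7 of the 23 T-box islands. EB5 was so at 7 and 11 and TT2 at 10 and 5, so J1 was not the line most often at an extreme. Of the T-box probes of an array, 56.6% (liver 2) to 100% (liver 1) had an input signal well above background, with a median of 85.9%.

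Islands are named here by the distance in bases from the annotated start of the gene to their first probe, negative upstream. A start island has a probe within 500 bases of the start. For T-box islands only the start of the named gene counts, while for all start islands of the array the start of any annotated gene does. The Tbx1 island at -5003, at the start of 4930588K23Rik, is therefore not counted as a T-box start. There were 8 such islands, at T, Eomes, Tbx1, Tbx2, Tbx3, Tbx15, Tbx18 and Tbx20. A further 8 lay upstream and 7 inside or downstream of their gene. Tbx4 and Tbx5 had no scored start island. Coordinates are those of the array files, which name no genome build. The longest start islands were that of Tbx2 on chromosome 11, 85648166 to 85649843, with 14 probes, and that of Tbx3 on chromosome 5, 119930645 to 119932131, with 12 probes.

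The sequences over the gene starts show how the genes differ in CpG content there. The windows are taken from RefSeq on GRCm38.p6, from 250 bases before the start to 50 after it, and each CpG is in capitals. They are T at chr17:8434173-8434472 (+), Eomes at chr9:118477939-118478238 (+), Tbx1 at chr16:18588850-18589149 (-), Tbx18 at chr9:87731211-87731510 (-) and Tbx20 at chr9:24774254-24774553 (-).
T: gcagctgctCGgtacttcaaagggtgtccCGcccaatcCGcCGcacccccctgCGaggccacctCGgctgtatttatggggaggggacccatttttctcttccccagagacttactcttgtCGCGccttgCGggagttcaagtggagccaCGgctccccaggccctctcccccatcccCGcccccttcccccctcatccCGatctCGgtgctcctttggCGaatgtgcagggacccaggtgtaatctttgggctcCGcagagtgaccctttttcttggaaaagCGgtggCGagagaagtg
Eomes: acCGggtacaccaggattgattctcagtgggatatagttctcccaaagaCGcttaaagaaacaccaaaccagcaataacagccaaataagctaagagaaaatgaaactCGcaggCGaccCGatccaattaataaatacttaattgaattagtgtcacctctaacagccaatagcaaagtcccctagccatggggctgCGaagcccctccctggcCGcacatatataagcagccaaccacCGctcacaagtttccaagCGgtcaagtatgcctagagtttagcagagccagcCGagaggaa
Tbx1: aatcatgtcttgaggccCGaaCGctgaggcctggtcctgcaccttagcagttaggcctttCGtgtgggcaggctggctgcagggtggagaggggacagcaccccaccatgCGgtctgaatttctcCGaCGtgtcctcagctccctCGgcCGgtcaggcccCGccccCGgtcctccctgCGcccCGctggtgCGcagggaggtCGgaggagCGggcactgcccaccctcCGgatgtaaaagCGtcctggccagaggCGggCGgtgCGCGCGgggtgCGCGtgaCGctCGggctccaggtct
Tbx18: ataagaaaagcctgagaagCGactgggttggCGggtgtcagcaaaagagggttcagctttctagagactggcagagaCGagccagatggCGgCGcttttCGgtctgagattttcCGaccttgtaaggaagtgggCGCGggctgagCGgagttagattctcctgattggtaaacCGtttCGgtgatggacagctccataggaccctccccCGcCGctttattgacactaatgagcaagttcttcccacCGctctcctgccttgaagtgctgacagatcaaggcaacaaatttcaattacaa
Tbx20: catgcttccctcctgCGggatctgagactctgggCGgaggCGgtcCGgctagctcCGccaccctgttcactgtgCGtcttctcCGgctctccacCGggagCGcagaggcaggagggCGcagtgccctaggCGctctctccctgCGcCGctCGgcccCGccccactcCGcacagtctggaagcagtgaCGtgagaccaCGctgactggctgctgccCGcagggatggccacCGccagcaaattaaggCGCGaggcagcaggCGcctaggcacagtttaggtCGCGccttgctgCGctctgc
The Eomes window held 10 CpGs, and 43.5% of 32851 windows of all genes held at least as many, against a median of 7. The T window held 17 (31.4% of windows) and the Tbx18 window 15 (34.6%). The Tbx1 and Tbx20 windows shown held 26 each (16.9%). A second Tbx1 start, not printed, held 16 (33%), and the Tbx4 window, whose gene has no scored start island, held 8 (48.6%).

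Start islands and the other T-box islands had different levels. The median of the class means over the 8 start islands was -0.249 in adult tissue, -0.352 in embryos, -0.15 in ES cells, -0.377 in differentiated ES cells and -0.287 in teratomas. Over all 10170 start islands on the array these medians were -0.263, -0.222, -0.194, -0.248 and -0.234. In those classes the T-box starts thus lay near the level of gene starts in general. The other 15 T-box islands were at 0.774 in adult tissue, -0.165 in embryos, 0.209 in ES cells, 0.237 in differentiated ES cells and 0.18 in teratomas. Of these 5 classes, adult tissue had the highest scores away from the gene starts and embryos the lowest.

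**Figure D1:**
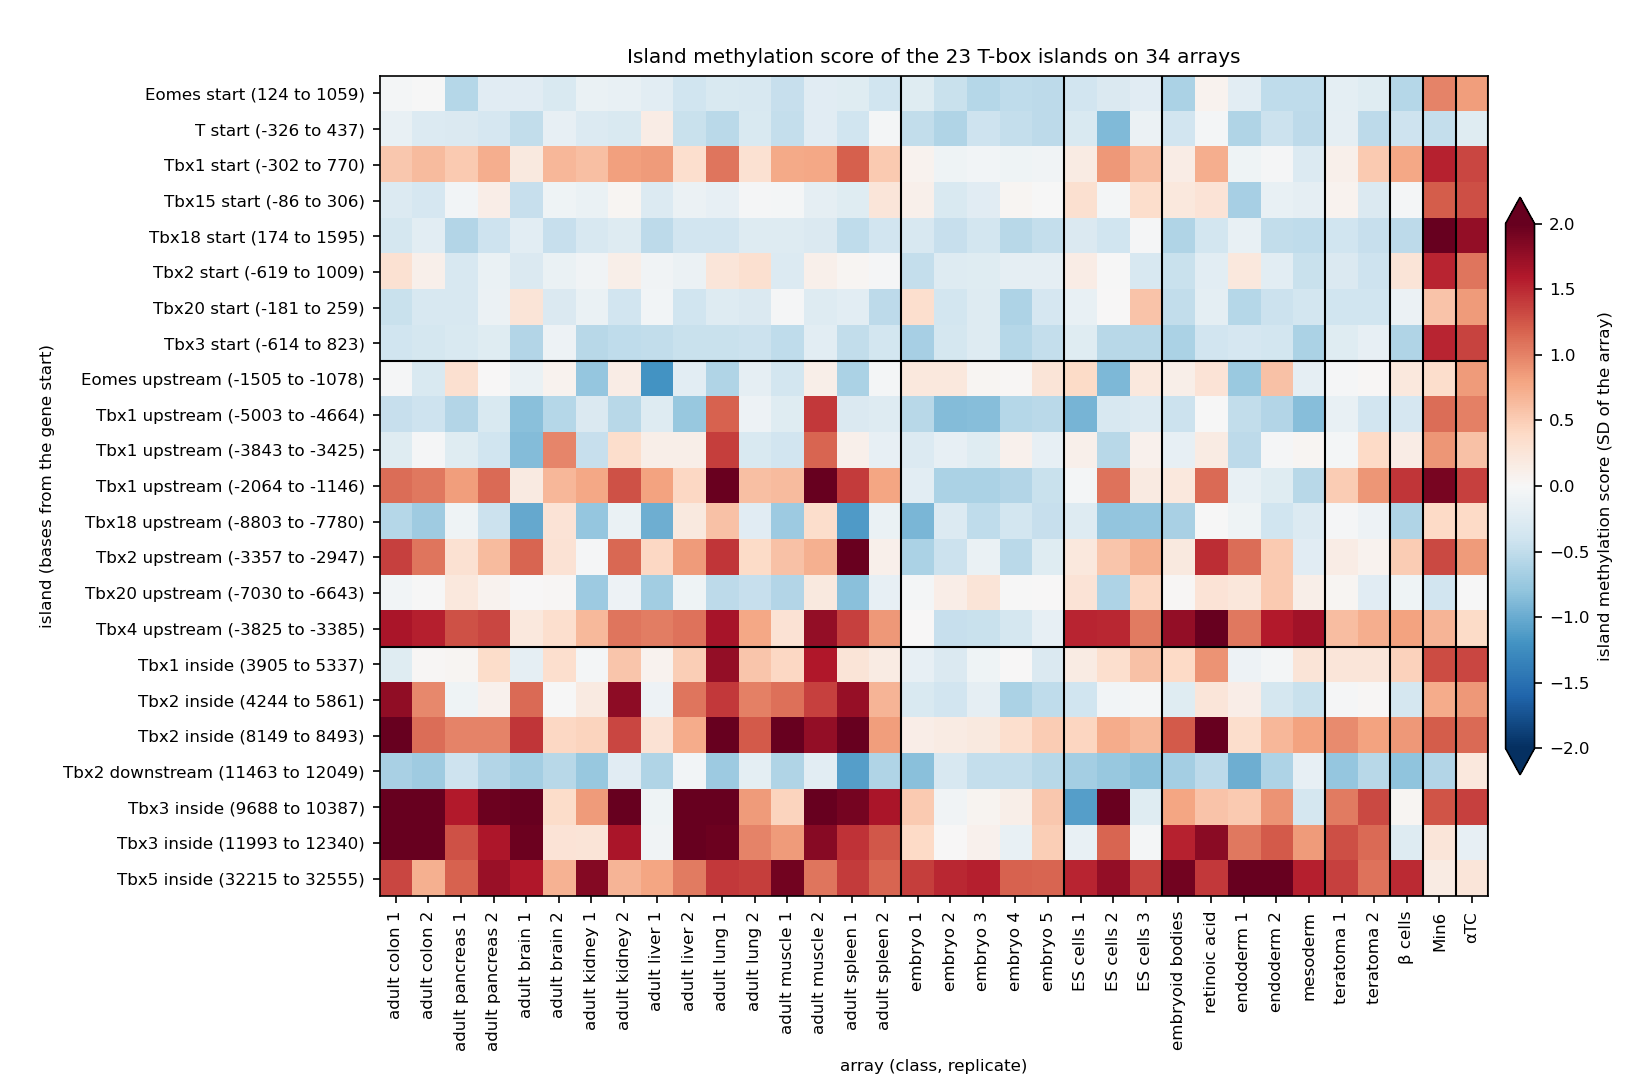
Island methylation score (colour, in SD of the array, limited at 2 and -2) of each of the 23 T-box islands (rows, with the distances of their first and last probe from the gene start in bases) on each of the 34 arrays (columns, by class). Start islands other than that of Tbx1 are pale or blue outside the Min6 and αTC columns, where 6 of 8 were above 0.75 on both. Away from the starts, several rows of Tbx1, Tbx2, Tbx3 and Tbx4 are red on most adult arrays and pale or blue on the 5 embryos.

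The start islands of Min6 and αTC were the exception. Of the 8 start islands, 6 were above 0.75 on both arrays, where the same held for 7.8% of all start islands. On the same 6 islands both lines lay above all other 32 arrays, as they did on 7.99% of all start islands. The median over the T-box starts was 1.36 in Min6 and 1.18 in αTC, while over all start islands it was -0.419 and -0.475. Both lines were on 1 slide and were scanned on 1 day, and their scores correlated at r = 0.865 across all islands. The β cell array was scanned on that day too, on another slide. Slide and cell line cannot be told apart for them, and with 1 array each there is no replicate error.

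The 2 genes of the early mesoderm differed here. T, which is needed for mesoderm and notochord, scored -0.476 in Min6 and -0.238 in αTC at its start island on chromosome 17, 8272248 to 8273055. Its adult arrays ran from -0.546 over a median of -0.293 to 0.141, with liver 1 the only one above 0. The embryos were at -0.494, -0.605, -0.41, -0.476 and -0.52 in order of age. T was thus low in the lines as in the other classes.

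Eomes, which acts in the trophoblast and in the mesendoderm, was high in both lines at its start island on chromosome 9, 118327143 to 118328122. Min6 scored 0.992 and αTC 0.837, while ex vivo β cells scored -0.563. Adult arrays lay between -0.564 and -0.00356 with a median of -0.239, all below 0. The upstream Eomes island at -1505 scored 0.35 in Min6 and 0.858 in αTC.

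Within the Tbx2 subfamily, Tbx2 and Tbx3 are repressors that act in the heart, the limb and the mammary gland. The Tbx3 start scored 1.52 in Min6 and 1.35 in αTC, against -0.598 in β cells. Its 16 adult arrays were between -0.582 and -0.0941. At the Tbx2 start Min6 scored 1.52 and αTC 1.07, while β cells scored 0.253 and adult arrays ran from -0.316 to 0.322. Neither start overlapped between the lines and any other array.

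In the Tbx1 subfamily the widest gap was at Tbx18, a gene of the epicardium and the somites. Its start island, on chromosome 9 from 87527589 to 87529055, scored 2.10 in Min6 and 1.76 in αTC. The 16 adult arrays lay between -0.579 and -0.205 and β cells at -0.531. The second Tbx18 island, at -8803, scored 0.4 in Min6 and 0.404 in αTC.

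Tbx15, which acts in the skeleton and the skin, scored 1.21 in Min6 and 1.29 in αTC at its start on chromosome 3, 99382712 to 99383308. Its adult arrays ran from -0.464 over -0.123 to 0.238. Tbx1, the pharyngeal arch gene, scored 1.54 and 1.34 at its start, but adult tissue was already raised there, with a median of 0.647 and a range of 0.191 to 1.19, and β cells scored 0.772. The heart gene Tbx20 was just inside the threshold in αTC (0.852) and under it in Min6 (0.565), where ES cells TT2 scored 0.57.

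**Figure D2:**
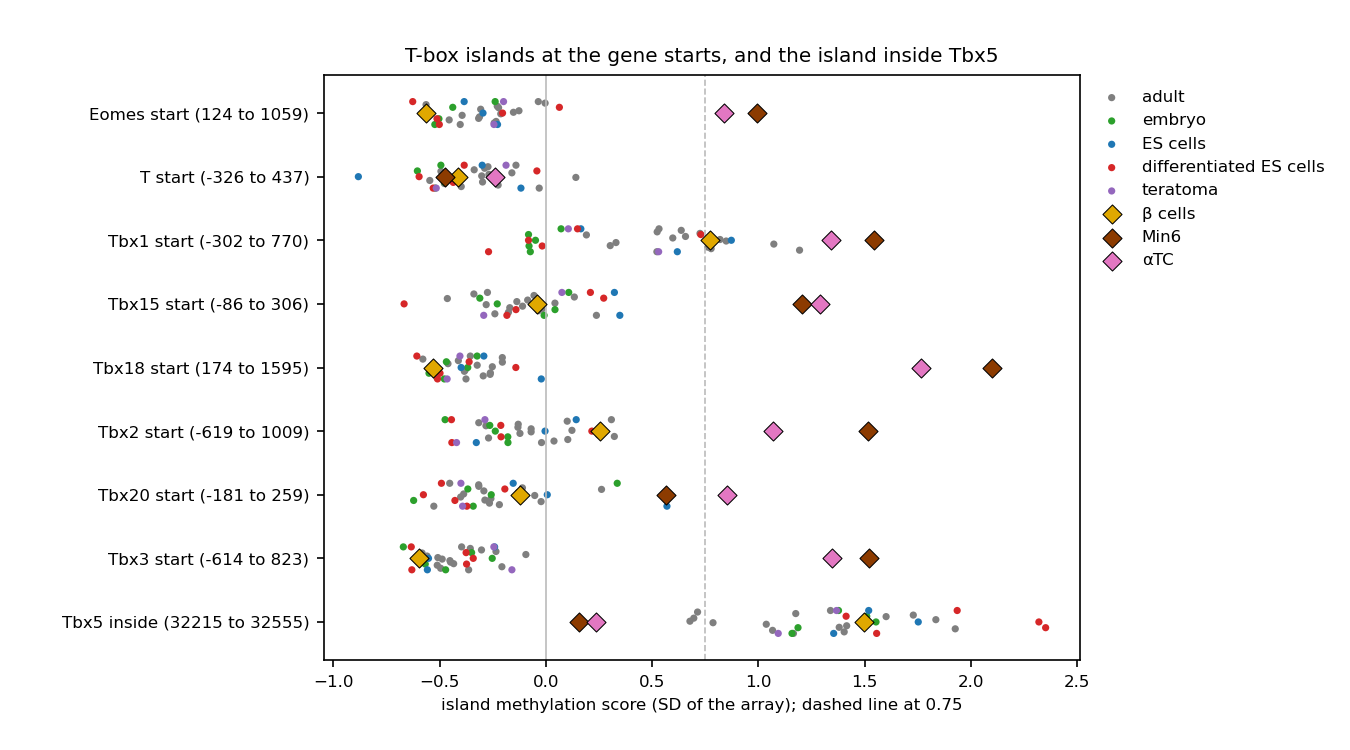
Island methylation score (SD of the array) of the 8 T-box start islands and of the island inside Tbx5, 1 point per array coloured by class, with β cells, Min6 and αTC as diamonds and a dashed line at 0.75. Both lines lie to the right of all other 32 arrays at 6 starts, at T they lie among them, and at Tbx5 they lie to the left of all of them, at 0.157 and 0.236.

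Islands that were below 0 on all 16 adult arrays numbered 4 of 23, where 29.8% of all islands were so. They were the starts of Tbx3, Tbx18 and Eomes and the island downstream of Tbx2. The 3 starts among them were above 0.75 in both lines, and of all islands below 0 on every adult array 2.76% were. β cells scored above 0.75 on 5 of 23 T-box islands, against 12.8% of all islands, and on 1 of 8 starts, that of Tbx1, against 4.8%. All 23 islands considered, 12 were above 0.75 in both lines and 16.3% of all islands were.

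One T-box island went the other way. Tbx5 drives heart and forelimb development, and its island inside the gene, on chromosome 5 from 120127467 to 120127856, was high almost everywhere. It scored 0.157 in Min6 and 0.236 in αTC, both below all other 32 arrays, as was the case for 9.3% of all islands. The lowest other array, kidney 2, was at 0.678, and β cells were at 1.50. The island inside Tbx3 at 11993 was also low in the lines, at 0.235 and -0.162, with β cells at -0.255, but embryos and ES cells overlapped with them.

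The single probes were compared where both lines have them, which are those of the smaller grid. At the Tbx3 start both lines were above the means of adult tissue, embryos, ES cells and differentiated ES cells on 12 of 12 probes, from 0.305 to 2.04. The same held for 12 of 12 probes at the Tbx2 start, 11 of 11 at the Tbx18 start and 7 of 7 at the Eomes start. It held for 6 of 7 probes at the Tbx1 start and for 3 of 4 each at the Tbx15 and Tbx20 starts. At the T start it held for 2 of 8 probes. On the island inside Tbx5 both lines were below all 4 class means on 4 of 4 probes. The island scores of both lines are means over these same probes, so the counts describe the islands and are no further evidence. Probes of the same island on the same array are not replicates. How often such counts arise over all islands was not counted.

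**Figure D3:**
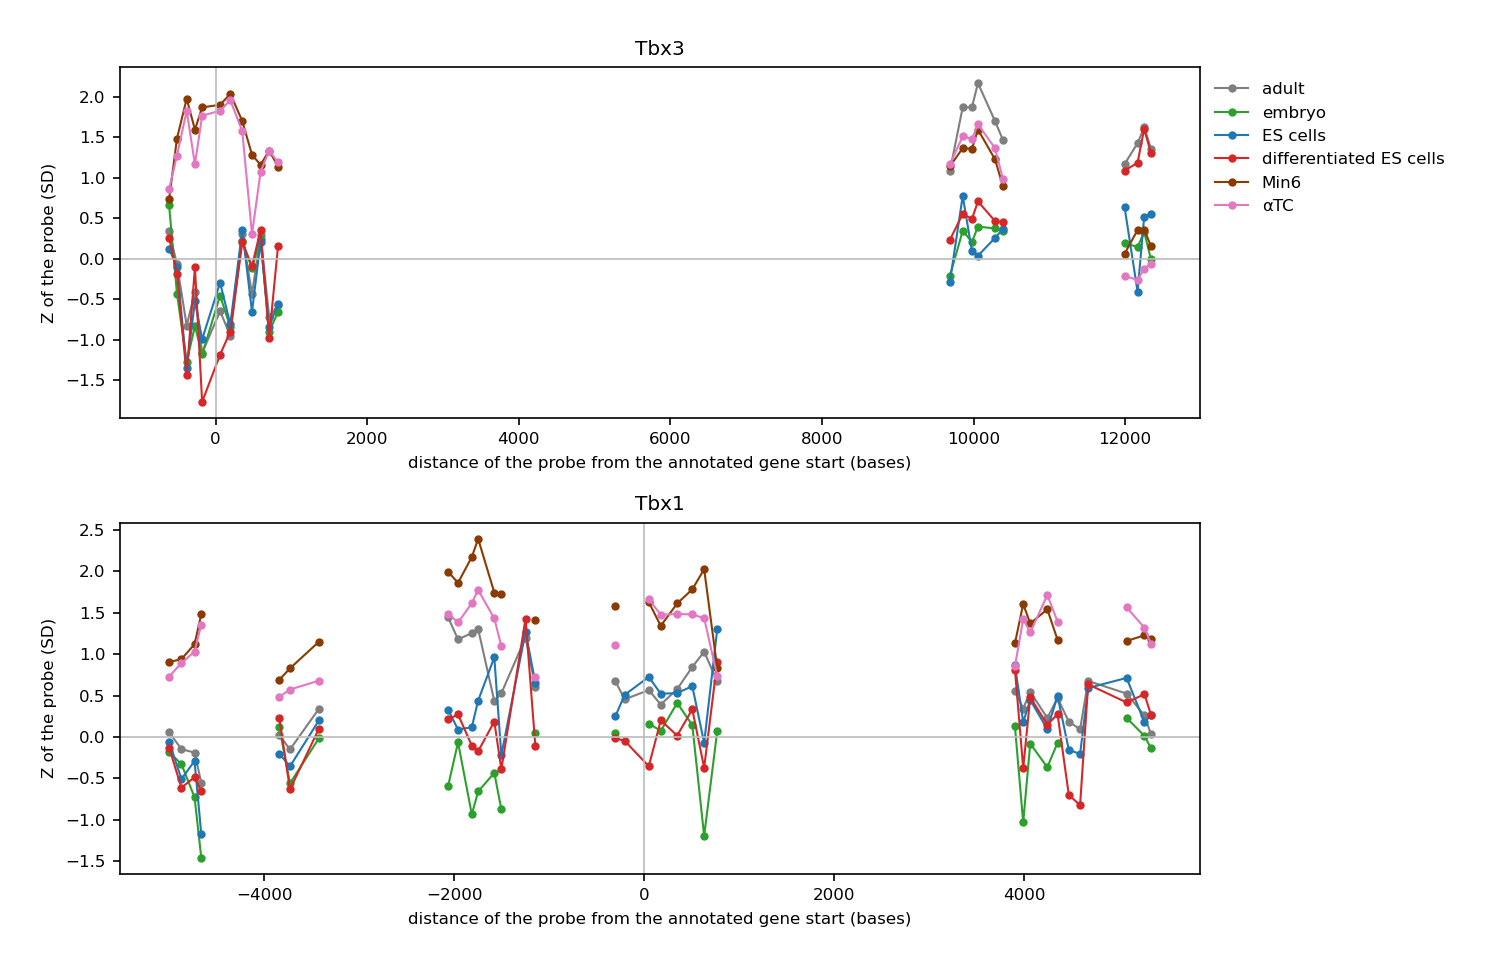
Z-score (SD of the array) of each probe of the Tbx3 and Tbx1 islands against its distance from the annotated gene start in bases, as class means of adult tissue, embryos, ES cells and differentiated ES cells and as single arrays for Min6 and αTC. Lines join probes of an island and break where the smaller probe grid lacks a probe. At the Tbx3 start both lines stay above 0 on all 12 probes, and inside Tbx3 at 9688 the adult mean exceeds the means of the other 3 classes on each of the 6 probes.

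Embryos had lower scores than adult tissue at several T-box islands. With limma, 8 of 23 islands passed an adjusted p under 0.05, all of them lower in embryos, where 8.62% of all islands passed and 3.47% passed as lower. All embryo arrays lay below all adult arrays at 5 of 23 islands, each of them among the 8, against 1.29% of all islands. The median difference over the 23 islands was -0.223, against 0.0368 over all islands. The genes belong to the Tbx2 subfamily and to Tbx1, and 7 of the 8 islands lie away from the start annotated on the array.

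Tbx4 is the neighbour of Tbx2 in the genome and acts in the hindlimb and the lung. Its upstream island, on chromosome 11 from 85702410 to 85702894, ran from 0.207 (brain 1) over a median of 1.08 to 1.75 (muscle 2) in adult tissue. The embryos scored 0.00473, -0.464, -0.448, -0.353 and -0.161 in order of age. Every embryo was below every adult array, with a difference of -1.34 ± 0.212 (SE, n = 5 and 16).

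At Tbx2 the upstream island at -3357 scored -0.0262 (kidney 1) to 1.98 (spleen 1) in adult tissue with a median of 0.667. Embryos were at -0.629, -0.426, -0.13, -0.539 and -0.239, all below the adult range, and the difference was -1.17 ± 0.249. The island inside Tbx2 at 4244, on chromosome 11 from 85653024 to 85654692, ran from -0.104 over 1.04 to 1.78 in adult tissue. Its embryo scores were -0.305, -0.384, -0.176, -0.629 and -0.507, also below every adult array, and differed by -1.28 ± 0.264. At 8149 the groups overlapped, since liver 1 was at 0.294 and the oldest embryo at 0.501, and the difference was -0.984 ± 0.279.

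Both islands inside Tbx3 were among the most variable of the adult arrays. At 9688, on chromosome 5 from 119940950 to 119941694, adult scores ran from -0.0876 (liver 1) over 1.94 to 3.10 (liver 2), and embryos were at 0.522, -0.0679, 0.0499, 0.111 and 0.531. The difference was -1.46 ± 0.427 with overlapping groups. At 11993 it was -1.23 ± 0.319, with adult scores of -0.0656 to 2.53 and embryo scores of 0.401, 0.00562, 0.0922 and -0.147 and, in the oldest, 0.493.

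Tbx1 was the only gene whose start island was among the 8. That island, on chromosome 16 from 18499733 to 18500860, scored 0.0716, -0.0816, -0.0488, -0.0792 and -0.0732 in embryos, below the adult range of 0.191 to 1.19, and differed by -0.698 ± 0.138. The Tbx1 island at -2064, on chromosome 16 from 18501656 to 18502618, was at 0.185 to 2.09 in adult tissue with a median of 0.821. Embryos were at -0.218, -0.628, -0.639, -0.581 and -0.446, which made this the T-box island with the largest difference from adult tissue, -1.49 ± 0.247. It carries the name of Tbx1 together with that of a divergent neighbour, 4930588K23Rik. RefSeq holds a second Tbx1 start, and whether this island covers it was not tested, since the array files name no build.

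T, Eomes, Tbx15, Tbx18, Tbx20 and Tbx5 had no island that passed in this comparison. Their differences ran from -0.218 ± 0.104 at the T start to 0.38 ± 0.204 at the upstream Eomes island. The embryo arrays shared no slide and no scan day with an adult array, and only the youngest embryo shared them with another class, through TT2. Fits with such a block therefore rest on 1 embryo. With the slide as a block 0 of 23 islands passed and 3 of 13620 in all, with the scan day 0 and 0, and with normexp background correction 1, Tbx1 at -2064.

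**Figure D4:**
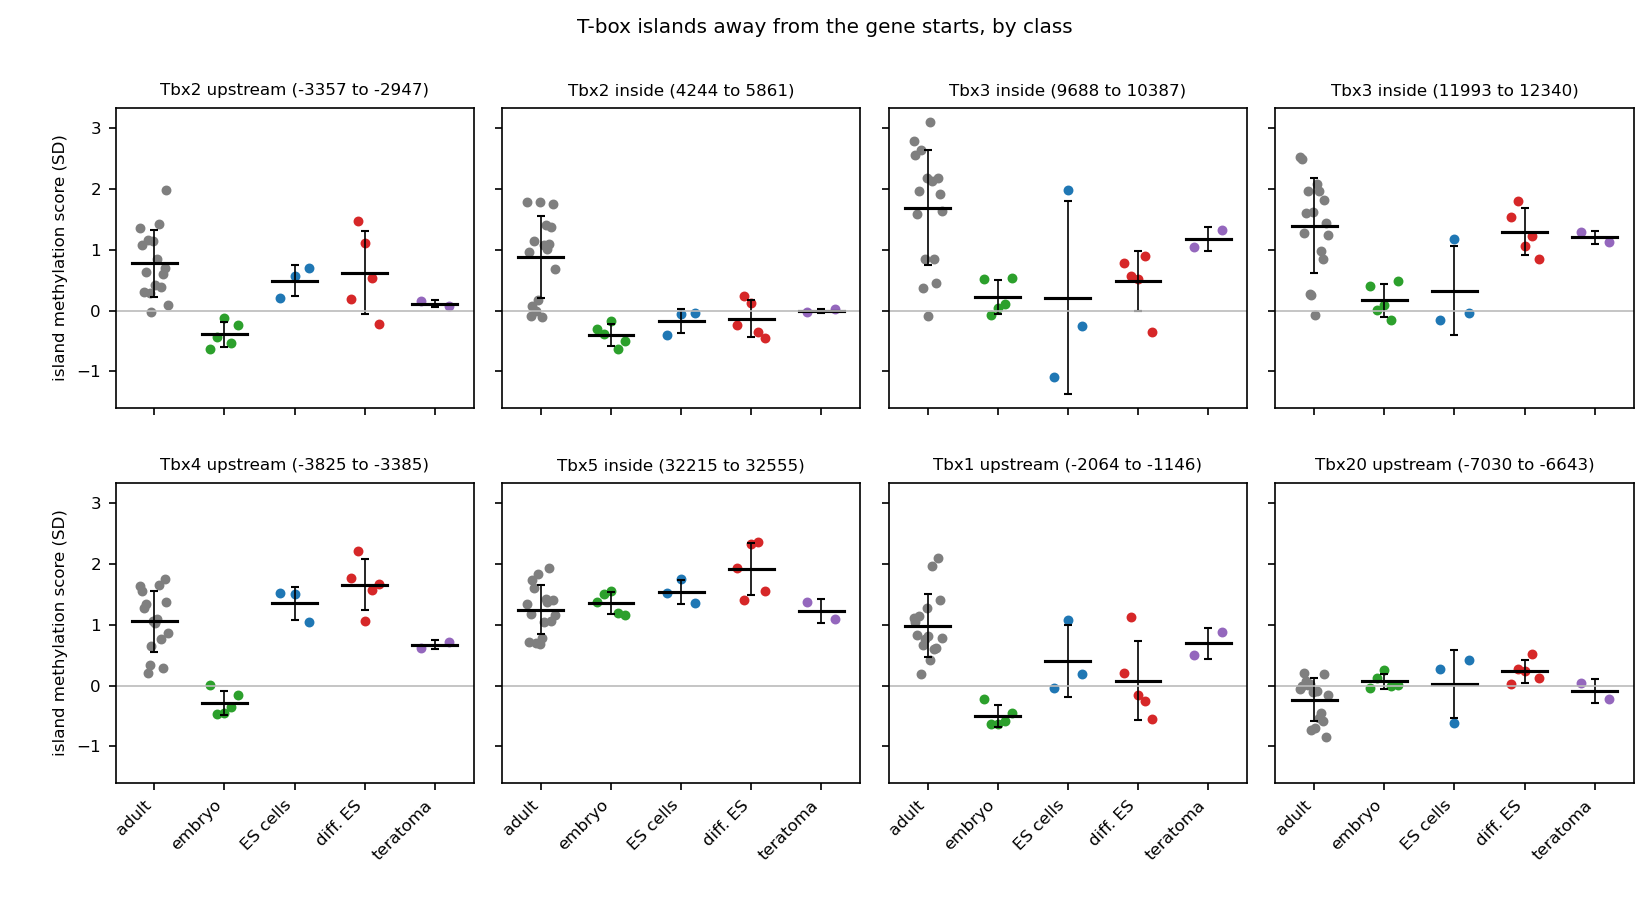
Island methylation score (SD of the array) of 8 T-box islands away from the gene starts annotated on the array, 1 point per array, with the mean (bar) and SD (whiskers) of adult tissue (n = 16), embryos (n = 5), ES cells (n = 3), differentiated ES cells (n = 5) and teratomas (n = 2). Embryos lie below every adult array at Tbx2 -3357, Tbx2 4244, Tbx4 and Tbx1 -2064. Differentiated ES cells have the highest mean at Tbx4 (1.66), Tbx5 (1.92) and Tbx20 (0.237).

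Differentiated ES cells were compared with adult tissue to ask what culture and differentiation leave at these islands. With limma 7 of 23 islands passed, 3 higher and 4 lower, where 23.2% of all islands passed, 14.4% as higher and 8.74% as lower. The higher T-box islands were thus near the share of all islands, and the lower ones, few in number, were above it. At no T-box island were all 5 arrays beyond all 16 adult arrays, as they were above them on 2.51% and below them on 0.91% of all islands. The median difference was -0.103 over the T-box islands and -0.01 over all islands.

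The 3 higher islands were those of Tbx4, Tbx5 and Tbx20 away from the starts. At Tbx4 embryoid bodies scored 1.76, retinoic acid 2.22, endoderm 1.05 and 1.58 and mesoderm 1.67, a difference from adult tissue of 0.602 ± 0.212. At Tbx5 the same arrays scored 1.94, 1.41, 2.32, 2.35 and 1.56, against 0.678 to 1.93 in adult tissue, and differed by 0.668 ± 0.181. Embryoid bodies and both endoderm arrays were above all adult arrays there, embryoid bodies by a narrow margin, and embryos, at 1.38, 1.51, 1.55, 1.19 and 1.16, were not. The upstream Tbx20 island at -7030, on chromosome 9 from 24531330 to 24531761, scored 0.024, 0.28, 0.231, 0.525 and 0.124, against -0.843 to 0.212 in adult tissue, a difference of 0.469 ± 0.161.

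The 4 lower islands were those inside Tbx2 and Tbx3 and 2 of Tbx1, all of which were also lower in embryos. Both comparisons share the adult arrays. At Tbx2 4244 the differentiated arrays scored -0.237, 0.247, 0.132, -0.344 and -0.452, a difference of -1.01 ± 0.264. At Tbx3 9688 they scored 0.785, 0.564, 0.527, 0.903 and -0.354, a difference of -1.21 ± 0.427. Mesoderm was the lowest of the 5 at both islands.

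The Tbx1 start was at 0.149, 0.729, -0.0817, -0.0173 and -0.27, a difference of -0.554 ± 0.138. Of these, retinoic acid alone lay in the adult range. At Tbx1 -2064 the scores were 0.21, 1.13, -0.156, -0.25 and -0.55, a difference of -0.905 ± 0.247. Retinoic acid was the highest of the 5 arrays at 15 of 23 T-box islands, and endoderm 1 the lowest at 9. How often these arrays were highest or lowest over all islands was not counted, so this is not shown to be particular to T-box islands.

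The islands just named include the one of each gene with the largest difference for Tbx1, Tbx2, Tbx3, Tbx4, Tbx5 and Tbx20. In the 4 remaining genes none passed. The T start differed by -0.114 ± 0.104, with scores of -0.384, -0.0423, -0.596, -0.436 and -0.53. The upstream Eomes island scored 0.113, 0.266, -0.747, 0.59 and -0.178, against -1.19 to 0.319 in adult tissue (0.244 ± 0.204). The Tbx15 start scored 0.21, 0.272, -0.667, -0.141 and -0.183 (0.0213 ± 0.115), and the Tbx18 island at -8803 scored -0.645, -0.00779, -0.0784, -0.394 and -0.268 (0.0653 ± 0.215). In each of these 4 the spread of the differentiated arrays covered the adult median.

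On 2 slides a differentiated array lay beside an adult one, endoderm 2 beside pancreas 1 and embryoid bodies beside brain 2. Within these slides the difference was 1.18 and 1.24 at Tbx5, 0.298 and 1.43 at Tbx4, -0.541 and -0.508 at the Tbx1 start and -1.08 and -0.45 at Tbx1 -2064. It was -0.257 and -0.233 at Tbx2 4244. At Tbx3 9688 it was -0.682 and 0.412, and at Tbx20 -7030 it was 0.313 and -0.00635, so these did not keep 1 direction. With the slide as a block 1 of 23 islands passed, that inside Tbx5, and 2058 of 13620 in all in place of 3156. With the scan day as a block the same island passed, and 2249 in all.

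Between differentiated ES cells and embryos 3 of 23 islands passed, all higher in the differentiated cells, where 21.1% of all islands passed and 11.8% passed as higher. They were Tbx4, with a difference of 1.94 ± 0.262, Tbx3 11993, with 1.13 ± 0.394, and Tbx2 -3357, with 1.01 ± 0.308, whose differentiated arrays scored 0.196, 1.47, 1.115, 0.529 and -0.22. At Tbx4 the lowest differentiated array was at 1.05 and the highest embryo at 0.00473. At Tbx3 11993 the differentiated arrays scored 1.54, 1.81, 1.05, 1.22 and 0.855, all above the 5 embryos. These 2 were the islands without overlap, against 8.67% of all islands that were higher without overlap.

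Undifferentiated ES cells were not separated from adult tissue at any T-box island after adjustment, where 2.3% of all islands passed. Without adjustment 5 of 23 passed, against 16.7% of all islands. The lines disagreed at the islands inside Tbx3. At 9688 EB5 scored -1.10, J1 1.97 and TT2 -0.249, and at 11993 they scored -0.153, 1.17 and -0.0369. Without the J1 array both Tbx3 islands passed as lower than adult tissue, and 1151 of all islands passed in place of 313. At Tbx4, on the other hand, the lines were alike, at 1.52, 1.50 and 1.04.

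Between differentiated and undifferentiated ES cells 0 of 23 islands passed with limma, against 5.49% of all islands, and 3 passed without adjustment, against 20.9%. The Tbx20 start was the island whose arrays did not overlap, with ES cells at -0.154, 0.00658 and 0.57 and differentiated cells at -0.576 to -0.193 (difference -0.553 ± 0.173), where 5.17% of all islands were lower without overlap. It passed without retinoic acid and without EB5.

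Teratomas, with 2 arrays, had no T-box island that passed against adult tissue (0.191% of all islands) or against differentiated ES cells (6.8%). Without adjustment limma gave 2 of 23 against 7.8% and 3 of 23 against 20.8%. Their Tbx4 scores were 0.622 and 0.72, below all 5 differentiated arrays and within the adult range. Their Tbx5 scores were 1.37 and 1.09, also below all 5, and 12.1% of all islands were lower without overlap. The Tbx3 start and the Tbx3 island at 9688 were higher without overlap, as were 10.9% of all islands. The islands inside Tbx3 were at 1.04 and 1.32 and at 1.28 and 1.13, within the adult range and above all 5 embryos.

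Among the 8 adult tissues as labelled, 0 of 23 islands passed the moderated F test of limma, where 0.0808% of all islands passed, and 0 passed without adjustment, where 3.95% did. This comparison rests on the tissue labels, which 12 of the arrays did not bear out. In the 6 tissues other than colon and pancreas, replicate 1 was scanned on 1 day with the larger probe grid and replicate 2 on 3 other days with the smaller grid, so the replicate number goes with day and grid. By the scores of X-linked islands it also goes with sex, high in replicate 1 and low in replicate 2, except in lung (1.69 and 0.915). The replicates of a tissue were far apart at the islands with the widest range, and the part of day, grid and sex in this was not tested. At Tbx3 9688 brain scored 2.64 and 0.373, liver -0.0876 and 3.10, kidney 0.845 and 2.18, lung 2.13 and 0.847, and muscle 0.449 and 2.17. The upstream Tbx1 island at -5003, which lies at the start of 4930588K23Rik, was above 0 on 2 adult arrays, lung 1 at 1.19 and muscle 2 at 1.41, with lung 2 at -0.105 and muscle 1 at -0.246.

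**Figure D5:**
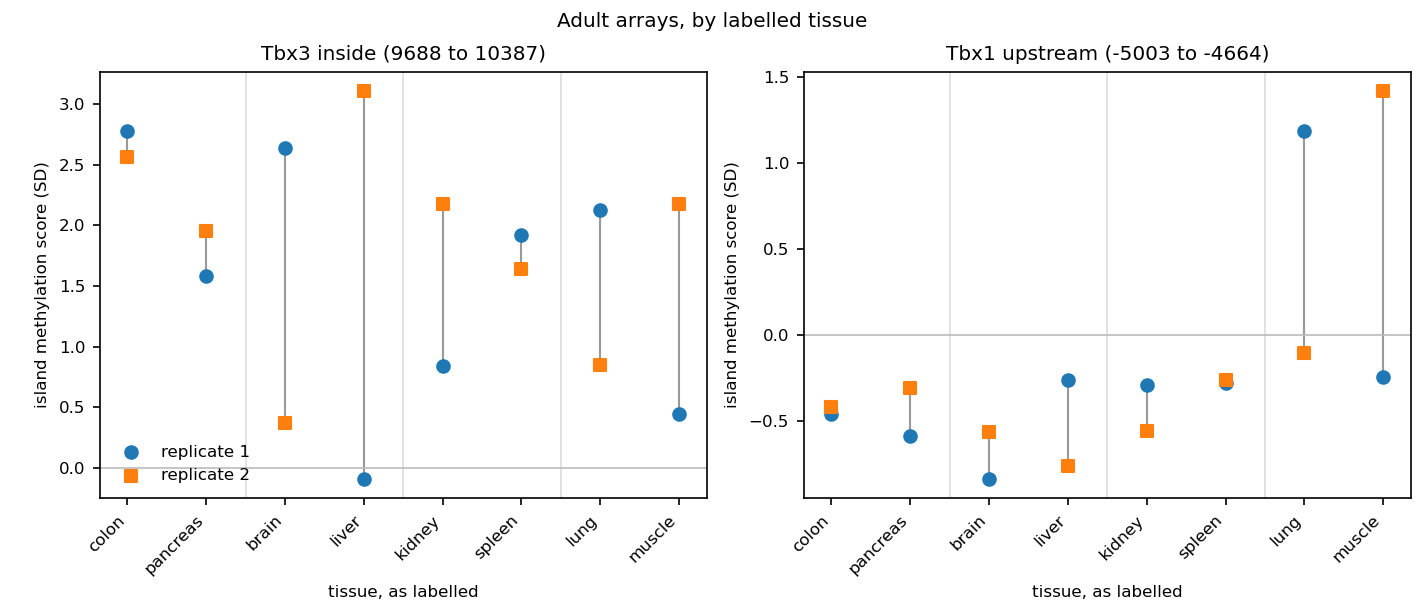
Island methylation score (SD of the array) on the 16 adult arrays by tissue as labelled, with replicate 1 as circles, replicate 2 as squares and a line between them, for the island inside Tbx3 at 9688 (left) and the Tbx1 island at -5003 (right). Colon and pancreas replicates lie close together, whereas liver spans -0.0876 to 3.10 at Tbx3 and muscle -0.246 to 1.41 at Tbx1.

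Colon and pancreas, whose arrays were most like their own replicate, were compared alone after the data had been seen. With limma 4 of 23 islands passed, all higher in colon, against 3.94% of all islands. Both colon arrays were scanned on the same day and the pancreas arrays on other days and slides. Tissue and scan day cannot be told apart here. At Tbx2 4244 colon scored 1.78 and 0.968 and pancreas -0.087 and 0.0799. At Tbx2 -3357 they scored 1.36 and 1.07 against 0.301 and 0.628. Both islands inside Tbx3 were at 2.49 to 2.78 in colon and at 1.28 to 1.96 in pancreas. In all 4 both colon arrays were above both pancreas arrays, which describes the islands called on these same arrays and is no further evidence.

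Of the other T-box genes on a list of 7, Tbr1, Tbx21 and Mga had 5 scored islands. Tbr1, which acts in the forebrain, had 2 islands that were higher in differentiated ES cells than in adult tissue, by 1.28 ± 0.177 inside the gene and by 1.04 ± 0.179 downstream of it. Its inside island with the difference of 1.28 had adult scores of -0.856 to -0.0213 and scored 1.80 in Min6 and 1.35 in αTC. Of the 5 islands 3 were above 0.75 in both lines, where 16.3% of all islands were, but 0 of the 2 start islands, where 7.8% of all starts were. These starts scored 0.00355 and 0.0375 at Tbx21 and -0.417 and -0.645 at Mga, in Min6 and αTC. Neither the Tbx21 island nor that of Mga passed in any of the 7 comparisons between classes. The downstream Tbr1 island was lower in embryos than in adult tissue, by -0.725 ± 0.179.

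Genes that act with T-box factors were taken from a list of 29 signals, partner factors and targets, of which 25 had 59 scored islands. In differentiated ES cells 12 of the 59 were higher and 2 lower than in adult tissue, where 14.4% of all islands were higher and 8.74% lower. In embryos 0 were higher and 5 lower (5.15% and 3.47% of all islands), and in ES cells 1 was higher and 0 lower (0.984% and 1.31%). The highest difference was upstream of Nkx2-5, a cardiac factor that works with Tbx5, at 1.70 ± 0.227, followed by an island upstream of Gata4, a further cardiac partner, at 1.28 ± 0.359. Mixl1, a mesendoderm gene, was lower by -0.492 ± 0.12. Between differentiated ES cells and embryos 15 of the 59 were higher and 2 lower, against 11.8% and 9.3% of all islands. In Min6 and αTC 28 of the 59 islands were above 0.75 on both arrays, where 16.3% of all islands were, and 11 of 26 starts, where 7.8% of all starts were.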

How the data were processed

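The deposited scanner files of 34 arrays hold, per probe, the log10 ratio of the bound channel (Cy5) over the input channel (Cy3), which the authors obtained with Agilent feature extraction software after background subtraction and linear dye normalization. They also hold deposited intensity values, as the median pixel of a spot and of the area around it in either dye. A deposited table of the whole series holds a Z score per probe, which the authors took according to the melting temperature of the probe, and was used as an alternative. Its J1 column hardly followed the scanner file of that array. There were 0 columns of no sample.

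Grids of 97651 and 88737 probes were in use, and 442 probes without a position were left out. The log10 ratio was turned into a Z-score over all probes of an array, without the melting temperature step. Probes were joined where gaps were at most 500 bases, and the score is the mean Z of islands with at least 3 probes on every array. A score above 0.75 was counted as high. Island coordinates and distances from gene starts are those of the files, whose build is not given in the sources used here. Promoter windows came from RefSeq on GRCm38.p6. T, Eomes, Tbx1, Tbx4, Tbx18 and Tbx20 had a window, and those of Tbx2, Tbx3, Tbx5 and Tbx15 were not used here.

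Scores were compared with limma 3.58.1 in R 4.3.3 in 1 fit over adult tissue, embryos, ES cells and differentiated ES cells, in a second fit that added teratomas, and in a moderated F test over the 8 adult tissues. P-values were adjusted over all 13620 islands by the Benjamini-Hochberg method at 0.05, and errors of differences are standard errors of the fit. Arrays of β cells, Min6 and αTC have no replicate and entered no test. Tables were made in Python 3.11.15 with pandas 2.3.3 and numpy 2.4.6. The limma fit of differentiated ES cells against adult tissue was tested on simulated scores with known differences and independent noise. Other steps were not tested in this way. Precision is limited by the number of arrays.

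The members and the gene lists were chosen with earlier results of these data known. For each gene, the island that differed most in absolute terms between cultured differentiated cells and adult tissue was given array by array, other islands by their values or ranges, and listed partner genes by at most 4 examples. The alternatives were a median-centred log2 ratio, normexp background correction with an offset of 50, the deposited table, leaving out dim probes, the median of probes, at least 5 probes, the member's own probes alone, slide or scan day as a block, the replicate number as a block, a fit of only the classes compared, the methods' t-test, and leaving out each array. Restricting to probes on both grids, to colon and pancreas, and to the other 6 tissues with scan day as a block was chosen after seeing the data.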

Additional observations from a re-analysis of the deposited data

Results flagged for a closer look

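At 3 islands a single embryo stood apart from the other 4, with a gap above the Dixon limit. The youngest embryo scored -0.474 at the Tbx2 start, where the others lay between -0.264 and -0.178. At the Tbx1 start it scored 0.0716, where the others lay between -0.0816 and -0.0488. The embryo of 11.5 dpc scored 0.0917 at the Tbx1 island at -3843, where the others lay between -0.266 and -0.167. Chance alone marks about 5% of groups in this way, and 46 groups were examined, of which 3 were marked.

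Min6 and αTC belong to no comparison of replicated groups. In both lines 6 start islands were above 0.75, those of Tbx1, Tbx2, Tbx3, Tbx15, Tbx18 and Eomes, and 1 island, inside Tbx5, was below all other 32 arrays. Each line has 1 array and no replicate, and both arrays were on the same slide.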

How the results depend on the processing

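Counts of T-box islands that passed are given per comparison. In differentiated ES cells against adult tissue the 7 became 4 with the median-centred log2 ratio, 1 with normexp, 4 of 10 with the deposited table, 4 of 12 with at least 5 probes, 1 with slide and 1 with scan day as a block. Without 1 array the count ran from 4 (without retinoic acid, and without endoderm 2) to 7. In embryos against adult tissue the 8 became 1 with normexp, 3 with the deposited table, 4 with at least 5 probes, 0 with slide and 0 with scan day, and 5 (without the embryo of 11.5 dpc) to 8 without 1 array. In differentiated ES cells against embryos the 3 became 1 with the log2 ratio, 1 with normexp, 0 with the deposited table, 0 with at least 5 probes, 0 with slide and 0 with scan day, and 1 (without endoderm 1) to 3 without 1 array. In ES cells against adult tissue the 0 became 3 with the deposited table and ran from 0 to 2 (2 without J1 and 1 without liver 1) without 1 array. In differentiated against undifferentiated ES cells it became 1 with the deposited table and ran from 0 to 2 (2 without retinoic acid and 1 without EB5). In teratomas against differentiated ES cells it ran from 0 to 1 (without endoderm 1), and among tissues it became 4 with colon and pancreas only. The causes were not tested, apart from the fewer islands that the deposited table and the 5-probe minimum leave.

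Of the islands named per gene, 3 that had not passed changed sign. T, at -0.114, became 0.0938 with normexp. The Tbx15 start, at 0.0213, became -0.0308 with the log2 ratio, -0.0442 without dim probes and -0.0722 to 0.163 without 1 array. Tbx18 at -8803, at 0.0653, became -0.0305 with the log2 ratio, -0.0108 with the median of probes, -0.619 with slide, -0.517 with scan day and -0.00242 to 0.157 without 1 array.

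With the replicate block, the adult tissue test gave 0 T-box islands and 8 islands in all, and teratomas against adult tissue gave 0 and 54. The labels do not say that a number marks a shared animal or day, but in 6 tissues it goes with scan day and probe grid and, except in lung, with sex. The slide and scan-day blocks could not be fitted for all 8 tissues or for the teratoma comparisons. Over the 6 tissues that share scan days, a fit with that block, added after seeing the data, gave 0 T-box islands and 0 in all (1 T-box island without adjustment). Using only probes on both grids, leaving out dim probes, taking the median of probes and using the members' own probes left every count of T-box islands within 1.5 times its value. So did fitting only the 2 classes compared, and the methods' t-test after Benjamini-Hochberg adjustment, which gave 5 for differentiated ES cells and 8 for embryos against adult tissue and 2 for differentiated ES cells against embryos (7, 12 and 6 without adjustment). A score is relative to its array and gives no methylated fraction, and class comparisons rest on 2 to 16 arrays.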

Other observations

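The start islands of the T-box genes were correlated with each other, and much less so without the cell lines. Over 34 arrays, the median Pearson correlation of the 28 pairs of start islands was 0.622, and over the 32 arrays other than Min6 and αTC it was 0.138. Pairs of islands of the same gene had a median of 0.513 (26 pairs) and pairs of different genes a median of 0.2 (227 pairs). Both islands of a pair were measured on the same arrays, and these values are descriptions.

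Among the islands whose scores over the 34 arrays were most like the mean of the Tbx4, Tbx5 and Tbx20 islands that were higher in differentiated ES cells were those of Prrt1 (r = 0.803), Htra3 (0.78), Slitrk1 (0.761) and Zfp422 (0.754). At Slitrk1, a gene of neuronal membranes, the mean score was 1.91 in differentiated ES cells, 1.02 in ES cells, -0.448 in adult tissue and -0.67 in embryos. At Prrt1 these means were 1.59, 0.721, 0.368 and -0.161. These islands were picked on the same arrays for following islands called higher in differentiated ES cells. Their class means therefore follow from the choice and are no further evidence.

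Within the list of genes that act with T-box factors, the 20 islands of signalling genes had 4 that were higher and 0 that were lower in differentiated ES cells than in adult tissue, where 14.4% of all islands were higher and 8.74% lower. The 32 islands of partner factors had 7 and 1, and the 7 islands of genes downstream had 1 and 1. The median difference over the 59 islands was 0.0972, against -0.01 over all islands, and against embryos in place of adult tissue it was 0.21 and -0.0393.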
